A study of Mus musculus with 6 samples.

Results

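Aldo-keto reductases are cytosolic enzymes that use NADPH or NADH to reduce aldehydes and ketones to alcohols. Some handle sugars and the aldehydes of lipid oxidation, and others, the AKR1C enzymes, act on the keto and hydroxyl groups of steroids as hydroxysteroid dehydrogenases. In the small intestine such enzymes meet dietary carbonyls, steroids and bile acids, the detergent-like sterols that the bile duct delivers and the ileum takes back up.

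The 10 genes described here are the mouse aldo-keto reductases Akr1a1, Akr1b3, Akr1b7, Akr1b8, Akr1c6, Akr1c12, Akr1c13, Akr1c14, Akr1c18 and Akr1c19. They were taken as a family. Akr1c14 was chosen by its lower signal in BDL_GW4064 than in BDL_Vehicle, so the members' values in that comparison are a description and were given no test. Of the 22690 probe sets on the array, 11 were annotated to a member, 10 of them to 1 member alone and 1 to a pair of members together. Of the 10 genes, 5 were tested on 8 probe sets of their own: Akr1a1 on 4, and Akr1b8, Akr1c12, Akr1c13 and Akr1c14 on 1 each. Akr1c6 and Akr1c18 lay below the filter on low signal. Akr1b3, Akr1b7 and Akr1c19 had no probe set of their own in the annotation and were not analysed here.

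The study asked how the ileum, the last stretch of the small intestine, responds when bile flow is blocked and the bile acid receptor FXR is activated. All mice were wild-type males of mixed strain (C57BL/6:129Sv), 8 to 10 months old, and all were dosed daily by gavage for 2 days before and 5 days after abdominal surgery. BDL_GW4064 mice had bile duct ligation (BDL), in which the common bile duct was tied off, and received GW4064, a synthetic FXR agonist, at 100 mg/kg/day. BDL_Vehicle mice had the ligation and the dosing solution alone. Sham_Vehicle mice received the dosing solution and had the duct exposed and freed but not tied. Each group had 2 arrays. Sham surgery with GW4064 is not analysed here. In whole ileum, fewer cells of a type and less RNA per cell cannot be told apart. Whether replicate arrays stand for different mice is not in the labels, and the p-values then cover only array-to-array spread, which may be technical.

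Values are MAS5 signals on a linear scale, scaled to a common mean in all arrays. A signal of 37.1 corresponds to the filter on low signal. Fold changes are differences of log2(signal + 4) with the standard error (SE) of the limma fit, and a call is a Benjamini-Hochberg adjusted p under 0.05 over 13575 probe sets. The labelled tissue was checked first. The 7 measured enterocyte markers, Vil1, Fabp2, Apoa1, Apoa4, Lct, Anpep and Mttp, summed to 32925 and 28593 in BDL_GW4064, to 28282 and 31266 in BDL_Vehicle and to 31581 and 31951 in Sham_Vehicle. Of the 4 measured liver markers, Alb stayed between 7.1 and 28.4 in all arrays and Fgb between 0.7 and 3.1. Ttr ran from 53.7 to 81.2, above the filter signal in every array, and Apoh reached 120.3 in BDL_GW4064 replicate 1. These 4 markers summed to 208.4 and 124.5 in BDL_GW4064, to 123.6 and 86.5 in BDL_Vehicle and to 149.8 and 157.2 in Sham_Vehicle. Arrays of a group correlated at 0.968 to 0.974 across log2 signals, and arrays of different groups at 0.948 to 0.980, with 0.973 for BDL_GW4064 replicate 1 with BDL_Vehicle replicate 2, and 0.980 for BDL_Vehicle replicate 1 with Sham_Vehicle replicate 1. A control signal put the arrays of each of these 2 pairs together. The 18S rRNA 5′ control was dim, at 8.6 to 13.3, in the BDL_GW4064 pair and in BDL_Vehicle replicate 2. It was brighter, at 67.3 to 88.7, in the remaining BDL_Vehicle array and the Sham_Vehicle pair. The 3′ to 5′ ratio of actin was 1.73 in Sham_Vehicle replicate 2 and 1.09 to 1.22 elsewhere.

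Akr1c14 encodes a 3α-hydroxysteroid dehydrogenase, which reduces dihydrotestosterone and other ketosteroids. On its probe set (1418979_at) the signals were 135.8 and 126.5 in BDL_GW4064, 440 and 371.1 in BDL_Vehicle and 516.5 and 649.5 in Sham_Vehicle. The 3 groups did not overlap, with BDL_GW4064 lowest and Sham_Vehicle highest, and the gap below the ligated vehicle arrays was wider than any gap between arrays of a group. The means were 131 ± 6.58 in BDL_GW4064, 406 ± 48.7 in BDL_Vehicle and 583.0 ± 94.0 in Sham_Vehicle (SD, n = 2 arrays each).

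In BDL_GW4064 over BDL_Vehicle, the comparison on which Akr1c14 was chosen, its log2 fold change was -1.60 ± 0.17 (SE), or 3.02-fold lower. This was the 9th lowest of all 13575 probe sets. Akr1c14 was the 1 member probe set past the threshold there, beside 0.0516% of all probe sets (7, of which 6 were higher). The gene was chosen by its lower signal in this comparison, so nothing is read from that count. The nearest probe set with a lower signal outside the threshold was 1 of Rps9, a ribosomal protein gene, at -2.96. Without BDL_GW4064 replicate 2 the value for Akr1c14 was -1.55, and without BDL_GW4064 replicate 1 it was -1.64.

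The difference between the ligated and sham vehicle arrays was narrower, which was not itself tested. Akr1c14 in BDL_Vehicle over Sham_Vehicle had a log2 fold change of -0.52 ± 0.17 (SE), 1.43-fold lower, with a 95% interval of -0.91 to -0.12. It was lower in both BDL_Vehicle arrays than in both Sham_Vehicle arrays, yet it did not pass the test over all probe sets (limma adjusted p = 0.752). This comparison uses the same BDL_Vehicle arrays as the one on which the gene was chosen. The log2 fold change in BDL_GW4064 over Sham_Vehicle was -2.11 ± 0.17 (SE), 4.32-fold lower and the 4th lowest of all probe sets. That value carries no p-value here, because its low side is the arrays on which the gene was chosen.

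With the split in the 18S control as a term, the log2 fold changes of Akr1c14 were -1.47 in BDL_GW4064 over BDL_Vehicle, -0.39 in BDL_Vehicle over Sham_Vehicle and -1.87 in BDL_GW4064 over Sham_Vehicle. BDL_Vehicle was the 1 group with arrays on both sides of that split, so the first of these values rests on BDL_Vehicle replicate 2 and the second on BDL_Vehicle replicate 1. The third compares groups on opposite sides of the split, so it follows from the first and second and its direction is no separate result. The direction was the same in the first and second, and the part of the split in the remaining difference was not tested.

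**Figure D1:**
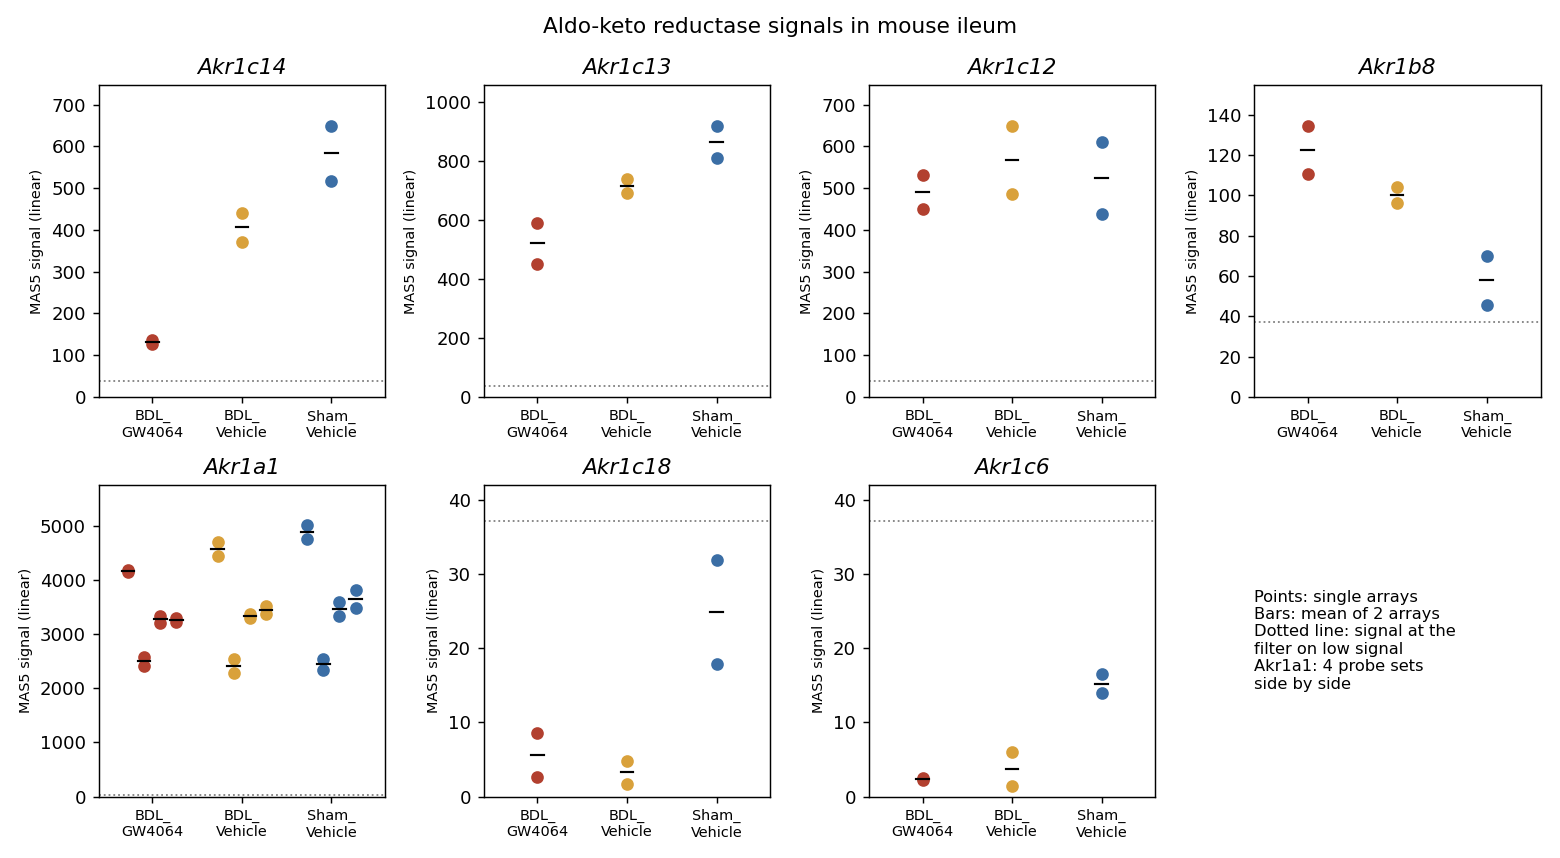
MAS5 signal on a linear axis for the 7 aldo-keto reductase genes with a probe set of their own, by group, with points for single arrays, bars for the mean of 2 arrays and a dotted line at the signal of 37.1. Akr1c14 and Akr1c13 are lowest in both BDL_GW4064 arrays, Akr1b8 is highest there, and Akr1c18 and Akr1c6 lie under the line in every array.

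Akr1c12 and Akr1c13 are close relatives of Akr1c14 in the same gene cluster and belong to the hydroxysteroid dehydrogenase branch of the family. Akr1c13 (1418672_at) had signals of 590.4 and 450.8 in BDL_GW4064, 691.7 and 739.5 in BDL_Vehicle and 811.5 and 920 in Sham_Vehicle. It ran in the same order as Akr1c14, with no overlap between groups and a narrower span. Its log2 fold change was -0.47 ± 0.16 (SE) in BDL_GW4064 over BDL_Vehicle. In BDL_Vehicle over Sham_Vehicle it was -0.27 ± 0.16 (SE), with a 95% interval of -0.65 to 0.10 (limma adjusted p = 0.766). In BDL_GW4064 over Sham_Vehicle Akr1c13 was 1.67-fold lower, at -0.74 ± 0.16 (SE) and a 95% interval of -1.12 to -0.36, and did not pass the adjusted test (limma adjusted p = 0.176).

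Akr1c12 (1422000_at) showed no such order. Its signals were 532.5 and 449.5 in BDL_GW4064, 649.6 and 485.4 in BDL_Vehicle and 611.4 and 436.9 in Sham_Vehicle, and all 3 groups overlapped. The log2 fold change was -0.20 ± 0.21 (SE) in BDL_GW4064 over BDL_Vehicle. It was 0.12 ± 0.21 (SE) in BDL_Vehicle over Sham_Vehicle (95% interval -0.38 to 0.61, limma adjusted p = 0.925). It was -0.08 ± 0.21 (SE) in BDL_GW4064 over Sham_Vehicle (95% interval -0.57 to 0.42, limma adjusted p = 0.888). The spread between arrays of a group was as wide as the spread between groups for this gene.

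The probe set annotated to a pair of members (1450455_s_at) read 1103.9 and 989 in BDL_GW4064, 1107.8 and 1425.3 in BDL_Vehicle and 1249.4 and 1242.2 in Sham_Vehicle. Both BDL_GW4064 arrays lay below the other 4, the higher of them by a small margin. The log2 fold change was -0.27 ± 0.15 (SE) in BDL_GW4064 over BDL_Vehicle. It was 0.01 ± 0.15 (SE) in BDL_Vehicle over Sham_Vehicle (limma adjusted p = 0.99) and -0.25 ± 0.15 (SE) in BDL_GW4064 over Sham_Vehicle (limma adjusted p = 0.431). Such a signal belongs to no single gene. Whether the probes of the single-gene sets also bind transcripts of neighbouring copies was not tested, since probe sequences were not used here.

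The upstream sequences of Akr1c12 and Akr1c13 were close to each other, and less close to that of Akr1c14. RefSeq's table for GRCm38.p6 held a 250-base window before the start for 9 of the 10 members, and 3 are printed, 5′ to 3′ on the gene's strand. For Akr1c14, at chr13:4059341-4059590 on the plus strand, the capitals mark 1 match to TTTATNG, the core bound by the CDX homeobox factors of intestinal epithelium. For Akr1c12, at chr13:4279400-4279649 on the minus strand, and Akr1c13, at chr13:4190937-4191186 on the plus strand, the 15 capitals in each mark the bases that differ from, or have no partner in, the other.
Akr1c14: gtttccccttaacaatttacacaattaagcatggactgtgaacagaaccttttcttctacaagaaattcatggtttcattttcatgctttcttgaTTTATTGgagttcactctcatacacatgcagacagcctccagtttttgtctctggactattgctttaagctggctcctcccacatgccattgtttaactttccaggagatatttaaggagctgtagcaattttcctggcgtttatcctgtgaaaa
Akr1c12: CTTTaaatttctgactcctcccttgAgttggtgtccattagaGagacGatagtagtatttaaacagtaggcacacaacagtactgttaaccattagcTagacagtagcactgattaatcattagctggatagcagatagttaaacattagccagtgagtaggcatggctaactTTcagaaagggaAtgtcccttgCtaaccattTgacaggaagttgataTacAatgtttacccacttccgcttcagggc
Akr1c13: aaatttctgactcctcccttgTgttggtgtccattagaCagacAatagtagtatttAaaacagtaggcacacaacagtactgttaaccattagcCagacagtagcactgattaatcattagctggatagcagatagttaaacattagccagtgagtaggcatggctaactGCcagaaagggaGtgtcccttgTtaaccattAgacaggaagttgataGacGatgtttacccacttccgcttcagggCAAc

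Akr1c12 and Akr1c13 were identical at 235 of 254 aligned positions (92.5%). Akr1c14 shared 43.9% to 52.1% with the windows of the other AKR1C members. Apart from Akr1c12 with Akr1c13, the pairs without Akr1c14 shared 43.7% to 59.0%, so such values were not particular to Akr1c14. TTTATNG, searched on both strands, was in 3 of the 9 member windows (Akr1c14, Akr1c6 and Akr1b7) and in 9.81% of 32851 windows of that length. The core of the antioxidant response element read by NRF2, TGACNNNGC, was in 0 of 9 and in 10.2% of all windows. An inverted repeat of the kind that FXR binds, AGGTCA followed by any 1 base and TGACC, was in 0 of 9 and in 0.0244% of all windows. A match is a string of letters in this window and says nothing of binding. The printed Akr1c14 start is 1 of the gene's annotated starts.

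Akr1c18 makes the 20α-hydroxysteroid dehydrogenase that inactivates progesterone, and Akr1c6 a 17β-hydroxysteroid dehydrogenase of liver. Akr1c18 read 2.7 and 8.6 in BDL_GW4064, 4.8 and 1.7 in BDL_Vehicle and 31.8 and 17.9 in Sham_Vehicle. Akr1c6 read 2.3 and 2.5 in BDL_GW4064, 6 and 1.4 in BDL_Vehicle and 16.5 and 13.9 in Sham_Vehicle. Both were highest in the Sham_Vehicle arrays, but every value lay under 37.1, so no fold change is given for either.

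In RefSeq the AKR1C genes and Akr1e1 stand in a row on chromosome 13, in the order Akr1c14, Akr1c18, Akr1c13, Akr1c19, Akr1c12, Akr1c6, Akr1c20, Akr1c21, Akr1e1. The genes that passed the filter were not next to each other in it. Akr1c14 lies at the end of the row beside Akr1c18, which was below the filter, and Akr1e1, a reductase of anhydrofructose, lies at the other end. Akr1e1 read 268.9 and 233 in BDL_GW4064, 196.4 and 289.7 in BDL_Vehicle and 265.3 and 249.8 in Sham_Vehicle. Its groups overlapped, with log2 fold changes of 0.07 ± 0.21, -0.11 ± 0.21 and -0.04 ± 0.21 (SE) in BDL_GW4064 over BDL_Vehicle, BDL_Vehicle over Sham_Vehicle and BDL_GW4064 over Sham_Vehicle. Akr1c21, its neighbour, was below the filter and read 21.5 and 12 in BDL_GW4064, 34 and 19.6 in BDL_Vehicle and 41.5 and 48.3 in Sham_Vehicle. Akr1c20, between Akr1c6 and Akr1c21, was below the filter too, and both of its probe sets were highest in a BDL_Vehicle array. Of the 4 genes of the row above the filter, Akr1c14 and Akr1c13 were highest in both Sham_Vehicle arrays, and Akr1c12 and Akr1e1 were not.

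**Figure D2:**
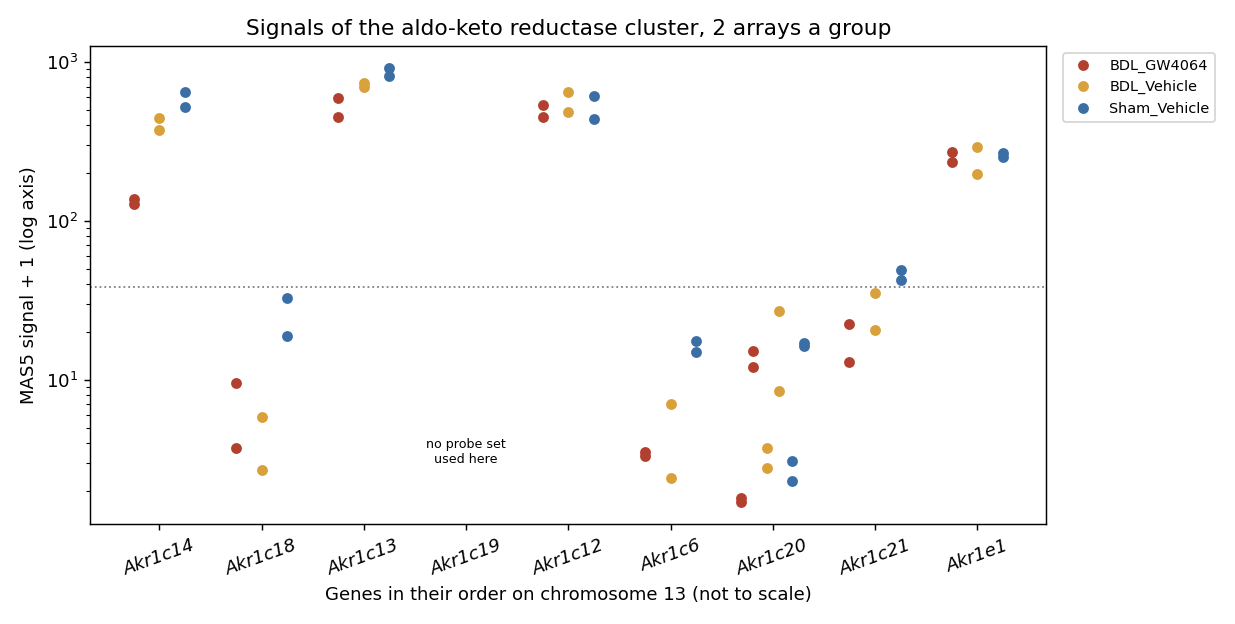
MAS5 signal plus 1, on a log axis, of single arrays for the genes of the chromosome 13 cluster in their order along the chromosome, not to scale, with 2 arrays a group and a dotted line at the filter signal. Akr1c14 shows the widest gap between groups among the genes above the line, Akr1c12 and Akr1e1 overlap, and Akr1c18, Akr1c6, Akr1c20 and most of Akr1c21 lie under it.

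Akr1b8 was the member with the opposite order. It encodes an aldose reductase-like enzyme of mouse, found first as a protein induced by fibroblast growth factor, that reduces reactive lipid aldehydes and retinal. Its probe set (1448894_at) read 110.4 and 134.6 in BDL_GW4064, 96.1 and 104 in BDL_Vehicle and 70 and 45.5 in Sham_Vehicle. BDL_GW4064 was highest and Sham_Vehicle lowest, with no overlap between any 2 groups, and the signals lay not far above the filter level. The means were 123 ± 17.1 in BDL_GW4064, 100.1 ± 5.59 in BDL_Vehicle and 57.8 ± 17.3 in Sham_Vehicle (SD, n = 2 arrays each).

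The log2 fold change of Akr1b8 was 0.28 ± 0.24 (SE) in BDL_GW4064 over BDL_Vehicle. In BDL_Vehicle over Sham_Vehicle it was 0.78 ± 0.24 (SE), 1.72-fold higher, with a 95% interval of 0.21 to 1.35 (limma adjusted p = 0.752). In BDL_GW4064 over Sham_Vehicle it was 1.06 ± 0.24 (SE), 2.08-fold higher, with a 95% interval of 0.49 to 1.62 (limma adjusted p = 0.176). Neither passed the test over all probe sets. Leaving out 1 array at a time gave values between 0.49 and 1.07 for ligation, and between 0.77 and 1.35 for BDL_GW4064 over Sham_Vehicle.

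Akr1a1 encodes the general aldehyde reductase, which in mice also makes the gulonate used for ascorbate synthesis. Its 4 probe sets were bright in all arrays. The probe set 1430123_a_at read 4189.9 and 4154.5 in BDL_GW4064, 4696.4 and 4438.9 in BDL_Vehicle and 4763.9 and 5011.2 in Sham_Vehicle. Its groups did not overlap, but the whole span was narrow beside that of Akr1c14.

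For this probe set the log2 fold change was -0.13 ± 0.09 (SE) in BDL_GW4064 over BDL_Vehicle, -0.10 ± 0.09 (SE) in BDL_Vehicle over Sham_Vehicle (limma adjusted p = 0.842) and -0.23 ± 0.09 (SE) in BDL_GW4064 over Sham_Vehicle (95% interval -0.43 to -0.02, limma adjusted p = 0.279). The probe set 1451035_a_at gave -0.07, -0.08 and -0.16 in the same 3 comparisons, and 1435011_x_at gave -0.03, -0.06 and -0.08. The probe set 1430124_x_at read 2579.9 and 2412.4 in BDL_GW4064, 2277.2 and 2537.8 in BDL_Vehicle and 2341.8 and 2544.3 in Sham_Vehicle, with log2 fold changes of 0.05, -0.02 and 0.03. The 4 probe sets were all below 0 in BDL_Vehicle over Sham_Vehicle. In both comparisons with BDL_GW4064 they disagreed in sign, with 1430124_x_at alone above 0. All values lay within 0.23 of 0. These probe sets read 1 gene and are not independent.

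**Figure D3:**
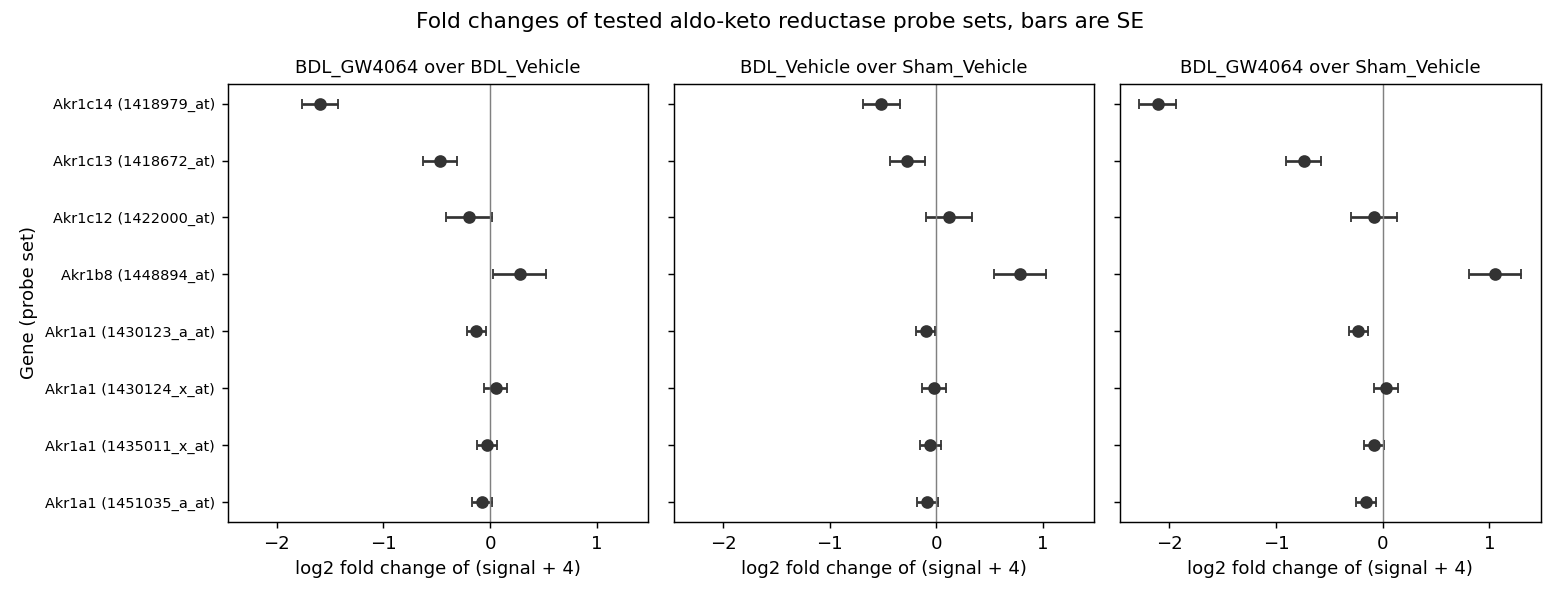
Log2 fold change of signal plus 4 with its SE for the 8 tested probe sets of single members, in BDL_GW4064 over BDL_Vehicle, BDL_Vehicle over Sham_Vehicle and BDL_GW4064 over Sham_Vehicle. Akr1c14 lies at -1.60, -0.52 and -2.11, Akr1b8 at 0.28, 0.78 and 1.06, and the 4 Akr1a1 probe sets near 0.

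Over the 8 probe sets of single members, 0 passed the threshold in BDL_Vehicle over Sham_Vehicle, where 0.0295% of all tested probe sets did (4, all lower). At an unadjusted p under 0.05 there was 1 of the 7 other than Akr1c14, which was Akr1b8, and 6.37% of all. In BDL_GW4064 over Sham_Vehicle, 0 of the 7 other than Akr1c14 passed, where 0.0368% of all did. At an unadjusted p under 0.05 there were 3 of the 7, Akr1c13, Akr1b8 and 1 probe set of Akr1a1, and 16% of all. The groups did not overlap in that comparison for 3 of these 7 that were lower, against 26.3% of all probe sets, and for 1 that was higher, against 23.8%. In BDL_Vehicle over Sham_Vehicle they did not overlap for 2 of the 7 that were lower, against 18.7%, and 1 that was higher, against 18.2%. In BDL_GW4064 over BDL_Vehicle they did not overlap for 3 of the 7 that were lower, against 18.1%, and 1 that was higher, against 17.4%. The median log2 fold change of the 7 without Akr1c14 was -0.07 in BDL_GW4064 over BDL_Vehicle, -0.06 in BDL_Vehicle over Sham_Vehicle and -0.08 in BDL_GW4064 over Sham_Vehicle, beside -0.01, -0.01 and 0.00 over all tested probe sets. Outside Akr1c14, Akr1c13 and Akr1b8, every value lay within 0.23 of 0. With so few probe sets, 4 of them of Akr1a1, these shares were not read as a property of the family.

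Markers of some other cell types differed between the groups, and those of others overlapped. The 8 smooth muscle markers, Acta2, Actg2, Myh11, Des, Tagln, Cnn1, Myl9 and Smtn, summed to 1077.9 and 12342 in BDL_GW4064, to 591.2 and 884.3 in BDL_Vehicle and to 912.2 and 1074.8 in Sham_Vehicle. BDL_GW4064 replicate 2 stood far above the other 5 arrays. The 8 fibroblast markers summed to 3166.4 and 4158.3 in BDL_GW4064, to 1068.1 and 1438.8 in BDL_Vehicle and to 1107 and 1740.6 in Sham_Vehicle. The 5 macrophage markers summed to 1530.5 and 1455.4 in BDL_GW4064, to 1057.4 and 871.7 in BDL_Vehicle and to 867.4 and 799.6 in Sham_Vehicle. All 8, 8 and 5 of them were higher in BDL_GW4064 than in BDL_Vehicle by mean log2 signal, as were 5 of 5 endothelial and 4 of 5 mesenteric fat markers, and none was at 0 in any array. The 5 endothelial markers summed to 435.1 and 418.4 in BDL_GW4064, to 230.2 and 237.8 in BDL_Vehicle and to 219.9 and 278.8 in Sham_Vehicle. The 5 markers of mesenteric fat summed to 418.4 and 1045.4 in BDL_GW4064, to 203.6 and 388.7 in BDL_Vehicle and to 269.7 and 522.2 in Sham_Vehicle. By mean log2 signal, markers of proliferating crypt cells ran the other way. Of these markers, 0 of 5 were higher in BDL_GW4064 than in BDL_Vehicle, with a median log2 fold change of -0.15. They summed to 1262.2 and 1755.2 in BDL_GW4064, to 1805.5 and 1516.5 in BDL_Vehicle and to 1399.3 and 1192.6 in Sham_Vehicle. The sums of the ligated groups thus overlapped. Goblet, Paneth and enteroendocrine markers had median log2 fold changes of 0.10, -0.07 and -0.04 in BDL_GW4064 over BDL_Vehicle.

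Akr1c14 read 135.8 in the BDL_GW4064 array with a smooth muscle sum of 1077.9 and 126.5 in the one with a sum of 12342. In BDL_Vehicle it read 440 in the array with a sum of 591.2 and 371.1 in the one with 884.3. Of the enterocyte markers, 4 of 7 were higher in BDL_GW4064 than in BDL_Vehicle, with a median log2 fold change of 0.02. Set against the median log2 signal of these 7 markers in the same array, Akr1c14 lay at -5.08 and -4.91 in BDL_GW4064, at -3.02 and -3.47 in BDL_Vehicle and at -3.04 and -2.72 in Sham_Vehicle. On that scale BDL_Vehicle and Sham_Vehicle overlapped. The part of the other cell types in the values of Akr1c14, Akr1c13 and Akr1b8 was not tested.

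**Figure D4:**
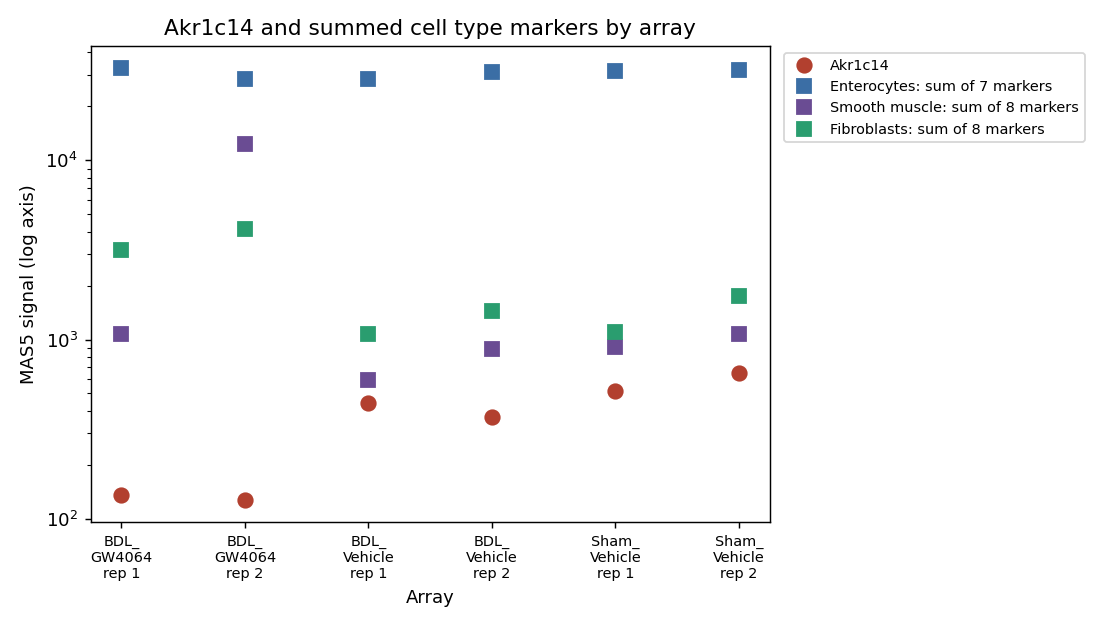
MAS5 signal of Akr1c14 and the summed signals of enterocyte, smooth muscle and fibroblast markers on a log axis, by array. Akr1c14 is low in both BDL_GW4064 arrays (135.8 and 126.5), the smooth muscle sum is high in BDL_GW4064 replicate 2 alone (12342), and the enterocyte sums run from 28282 to 32925.

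The rest of the superfamily was mostly dim in the ileum. Of 10 other listed members, 2 passed the filter. Akr7a5, a reductase of aflatoxin aldehyde and succinic semialdehyde, read 826.1 and 741.7 in BDL_GW4064, 621.7 and 840.3 in BDL_Vehicle and 613.2 and 782.7 in Sham_Vehicle. Its groups overlapped, and its log2 fold changes were 0.11, 0.06 and 0.18 in the 3 comparisons, each with an SE of 0.19. The other was Akr1e1, described with the cluster. Akr1b10, Akr1c20, Akr1c21, Akr1cl, Akr1d1, the last a bile acid synthesis enzyme of liver, and the potassium channel subunits Kcnab1, Kcnab2 and Kcnab3 were below the filter.

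Enzymes of other families that act on the same kinds of substrate were listed beside the members. Of 26 other hydroxysteroid dehydrogenases and steroid reductases, 12 were tested, and 0 passed in any of the 3 limma comparisons. At an unadjusted p under 0.05 there were 2 of 12 for ligation, beside 6.37% of all probe sets, and 2 of 12 in BDL_GW4064 over Sham_Vehicle, beside 16%. In BDL_Vehicle over Sham_Vehicle 10 of the 12 had values below 0, beside 52.1% of 7919 genes, with a median log2 fold change of -0.13 beside -0.01. Hsd17b2, which oxidises estradiol and testosterone, read 709.7 and 510.5 in BDL_GW4064, 589.2 and 615.4 in BDL_Vehicle and 763.3 and 868.2 in Sham_Vehicle. Its log2 fold change for ligation was -0.43 ± 0.18 (SE, limma adjusted p = 0.752), and BDL_GW4064 lay as far below Sham_Vehicle at -0.43 ± 0.18 (SE, limma adjusted p = 0.292). Hsd17b12, a reductase of long-chain fatty acid elongation, read 980.2 and 950.7 in BDL_GW4064, 1115 and 1110 in BDL_Vehicle and 886.8 and 605.6 in Sham_Vehicle, at 0.60 ± 0.18 (SE) for ligation (limma adjusted p = 0.752).

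Of 25 carbonyl and retinoid reductases, 19 were tested and 0 passed in limma, with 3 of 19 at an unadjusted p under 0.05 for ligation (6.37% of all probe sets) and 1 of 19 in BDL_GW4064 over Sham_Vehicle (16% of all). For ligation 17 of the 19 had values below 0, beside 52.1% of all genes, with a median of -0.14 beside -0.01. Rdh9, a retinol and steroid dehydrogenase, read 857.5 and 882.5 in BDL_GW4064, 639 and 629.5 in BDL_Vehicle and 846.4 and 1119 in Sham_Vehicle. It was lowest in both BDL_Vehicle arrays, unlike Akr1c14, at -0.61 ± 0.15 (SE) for ligation (limma adjusted p = 0.66) and 0.45 ± 0.15 (SE) for BDL_GW4064 over BDL_Vehicle. Rdh11, a retinal reductase, was 0.52 ± 0.17 (SE) for ligation (limma adjusted p = 0.752).

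The polyol and fructose pathway, which the aldose reductase branch feeds, had 4 tested genes of 6 listed, and 0 passed in limma, with 1 of 4 at an unadjusted p under 0.05 for ligation (6.37% of all probe sets) and 0 in BDL_GW4064 over Sham_Vehicle (16% of all). Tkfc, the triokinase of fructose breakdown, read 224.3 and 339.9 in BDL_GW4064, 539.2 and 722.2 in BDL_Vehicle and 214.6 and 407.2 in Sham_Vehicle. It was highest in both BDL_Vehicle arrays, with a log2 fold change of 1.07 ± 0.32 (SE) for ligation (limma adjusted p = 0.752) and -1.16 ± 0.32 (SE) in BDL_GW4064 over BDL_Vehicle. Slc2a2, a glucose and fructose transporter, read 236.3 and 294.1 in BDL_GW4064, 392.3 and 620.1 in BDL_Vehicle and 140.7 and 522.8 in Sham_Vehicle, with wide scatter between the Sham_Vehicle arrays.

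Several aldo-keto reductases are counted among the targets of NRF2, the regulator of antioxidant genes. Of 24 such targets, 16 were tested and 0 passed in any limma comparison, with 4 of 16 at an unadjusted p under 0.05 for ligation (6.37% of all probe sets) and 8 of 16 in BDL_GW4064 over Sham_Vehicle (16% of all). The median log2 fold changes were 0.07 in BDL_GW4064 over BDL_Vehicle, -0.07 in BDL_Vehicle over Sham_Vehicle and 0.33 in BDL_GW4064 over Sham_Vehicle, beside 0.00, -0.01 and 0.01 over all genes. The pair with the smallest p were glutathione transferases. Gsta4, which conjugates lipid aldehydes, read 513.1 and 686.8 in BDL_GW4064, 175.5 and 216.1 in BDL_Vehicle and 256.2 and 244.8 in Sham_Vehicle, with 1.23 ± 0.19 (SE) in BDL_GW4064 over Sham_Vehicle (limma adjusted p = 0.136). Gstm1 read 310.9 and 333.9 in BDL_GW4064, 108.8 and 137.7 in BDL_Vehicle and 207.2 and 223.9 in Sham_Vehicle, with -0.80 ± 0.17 (SE) for ligation (limma adjusted p = 0.492). Both were high in the arrays in which Akr1c14 was low. Other genes of the list were not: in BDL_GW4064 over Sham_Vehicle 10 of the 16 were higher and 6 lower. Among the lower, Nqo1 (98.9 and 98.5) and Gclc (393.2 and 369.2) were lowest in both BDL_GW4064 arrays, as Akr1c14 was. Nqo1 and Gclc were also among the 8 at an unadjusted p under 0.05, so that count mixes directions.

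The FXR and bile acid genes were listed for the treatments themselves. Of 7 tested genes, 3 passed the limma threshold for ligation, Fgf15, Fabp6 and Cyp3a11, all lower, beside 0.0295% of all probe sets. By sign, 6 of the 7 were lower for ligation, beside 52.1% of 7919 genes. In BDL_GW4064 over BDL_Vehicle 4 of the 7 passed, all higher, beside 0.0516% of all probe sets. Fgf15, the ileal hormone that restrains bile acid synthesis, read 972.1 and 809.6 in BDL_GW4064, 5.5 and 3.4 in BDL_Vehicle and 316.2 and 479.6 in Sham_Vehicle. It was at least 9.57-fold lower in BDL_Vehicle than in Sham_Vehicle with BDL_Vehicle set to the filter signal (limma adjusted p = 0.000344). Cyp3a11, a drug and bile acid oxidase, read 1787 and 1754 in BDL_GW4064, 628.8 and 673.7 in BDL_Vehicle and 2194 and 1955 in Sham_Vehicle. Fgf15, Fabp6 and Cyp3a11 were low in BDL_Vehicle and high in both other groups. Akr1c14 instead was intermediate in BDL_Vehicle and lowest in BDL_GW4064. In BDL_GW4064 over BDL_Vehicle 5 of the 7 listed genes were higher and 2 lower, Slc10a2 and Nr1h4. Slc10a2 was lowest in both BDL_GW4064 arrays, as Akr1c14 was, at 118 and 215.2 (507.2 and 357.1 in BDL_Vehicle, 595.6 and 324.1 in Sham_Vehicle). Nr1h4 read 319.3 and 274.7 in BDL_GW4064 and overlapped Sham_Vehicle (428.2 and 317.5).

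The genes most like Akr1c14 were ranked by Pearson correlation of log2 signal over the 6 arrays, among 1935 probe sets of single genes with a range of at least 1 on the log2 scale. With 6 arrays in 3 groups this is a description, and the points share their groups. The highest were Gnai3 (0.980), Rps9 (0.975), Akap9 (0.974), Tank (0.969), Cldn23 (0.967) and Cftr (0.964). Cldn23, a claudin of tight junctions, read 204.7 and 206.2 in BDL_GW4064, 445 and 389.6 in BDL_Vehicle and 436.9 and 416.8 in Sham_Vehicle. Cftr, the epithelial chloride channel, read 308.5 and 279.2 in BDL_GW4064, 478.5 and 405.8 in BDL_Vehicle and 567.9 and 514.7 in Sham_Vehicle. Other probe sets of the same genes gave different values: 0.889 for Akap9, 0.24 for Gnai3, -0.24 for Cftr and -0.67 and -0.05 for Rps9, while Tank and Cldn23 had no other. For Gnai3, Rps9 and Cftr the likeness thus held for 1 probe set and not for the others, and Akr1c14 itself was read by 1.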

How the data were processed

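RNA of the ileum (5 µg per sample) was hybridised to 6 Affymetrix Mouse Genome 430A 2.0 arrays, 2 per group. Labelling was run, per the labels' protocols, in batches that are not assigned to samples here. As deposited, the table holds linear intensity values, MAS5 signals per the submitters' processing notes. MAS5 subtracts mismatch from perfect-match probe signal, so low signals are noisy. All arrays share a 2% trimmed mean of 200.1, so they had been scaled alike. Neither MAS5 settings nor detection calls were at hand. The number of arrays, 2 per group, limits the precision.

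Of 22690 probe sets, 64 controls were left out. The lowest 40% by mean log2 signal were filtered, which left 13575 probe sets. The lower bound, a signal of 37.1, served as the floor for dim groups. Log2(signal + 4) was fitted with limma (version 3.58.1, R 4.3.3), 1 mean per group over all 6 arrays and a variance prior that followed signal, and p-values were adjusted by the Benjamini-Hochberg method over all 13575. This scale understates changes of dim genes. The fit was tested on simulated data. Probe sets were named from the platform annotation, and those of several genes were given to none.

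The members, lists and markers were chosen with earlier results of these data known. The 10 members were all named. From each list came the 2 genes with the smallest p over BDL_Vehicle over Sham_Vehicle and BDL_GW4064 over Sham_Vehicle, each by its brightest probe set. Fabp6, Nqo1, Gclc, Slc10a2 and Nr1h4 were named outside this rule. Fabp6 had passed the threshold, and the others were lower in BDL_GW4064 than in BDL_Vehicle. The 6 genes most like Akr1c14 were those of highest correlation. Members were given no p-value in BDL_GW4064 over BDL_Vehicle. Akr1c14 was given none in BDL_GW4064 over Sham_Vehicle either, although the design listed that test. Promoter windows came from RefSeq (GRCm38.p6), aligned globally in pairs. The array table names no build, and the gene order was taken from RefSeq by name. Alternatives were pseudocounts of 1 and 16, median centring, quantile normalisation, no filter, a filter at 60%, no variance trend, 4 arrays alone, replicate and array-set terms, and each array left out.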

Additional observations from a re-analysis of the deposited data

How the results depend on the processing

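The log2 fold change of Akr1c14 kept its direction under all alternatives tried. In BDL_GW4064 over BDL_Vehicle it ran from -1.66 to -1.47, and from -1.72 to -1.47 with 1 array left out. In BDL_Vehicle over Sham_Vehicle it ran from -0.52 to -0.39, and from -0.68 to -0.35. In BDL_GW4064 over Sham_Vehicle it ran from -2.14 to -1.87, the last with a term for the array set. With an array left out it ran from -2.27 to -1.95. The counts of member probe sets past the threshold that follow hold Akr1c14 alone, which was chosen on the BDL_GW4064 arrays, so they are no test of it. In BDL_GW4064 over BDL_Vehicle the count was 1 and became 0 with no filter, no variance trend, only the 4 arrays compared, the replicate block or the array set, and 0 with any 1 array of these groups left out. In BDL_GW4064 over Sham_Vehicle the count was 1, 0 without the trend, with the replicate block or with the array set, and 0 to 1 with an array left out, with 0 without BDL_GW4064 replicate 2, Sham_Vehicle replicate 1 or Sham_Vehicle replicate 2. Fewer residual degrees of freedom are part of the smaller fits, and the cause was otherwise not tested. In BDL_Vehicle over Sham_Vehicle it was 0 throughout.

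Replicate numbers did not pair the arrays: deviations of equal numbers correlated at -0.119 (BDL_GW4064 and BDL_Vehicle), 0.094 (BDL_GW4064 and Sham_Vehicle) and 0.037 (BDL_Vehicle and Sham_Vehicle). The replicate block gave 4 calls over all probe sets in BDL_GW4064 over BDL_Vehicle, 2 in BDL_Vehicle over Sham_Vehicle and 0 in BDL_GW4064 over Sham_Vehicle, against 7, 4 and 5 without it. A crossed pairing of BDL_GW4064 and BDL_Vehicle, chosen after seeing the data, gave 37. Counts over all probe sets ran from 2 to 37, from 1 to 6 and from 0 to 7 in these comparisons, and from 2 to 48, 1 to 3 and 0 to 29 with an array left out.

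Some values changed sign. With median centring, Akr1a1 on 1430124_x_at was 0.029 in BDL_Vehicle over Sham_Vehicle. In BDL_GW4064 over BDL_Vehicle the same probe set was -0.0091 with that centring and -0.025 with a term for the array set, which also gave 0.011 for Akr1c12, -0.21 for Akr1e1 and -0.10 for Akr7a5. Without BDL_GW4064 replicate 2 Akr1a1 on 1435011_x_at was 0.0042 there, and Hsd17b2 ran from -0.24 to 0.24 with an array left out. With the array set as a term, Akr7a5 was -0.16 in BDL_Vehicle over Sham_Vehicle and -0.26 in BDL_GW4064 over Sham_Vehicle, where Akr1c12 was 0.34 and Akr1a1 on 1430124_x_at was -0.12. With an array left out, ranges that crossed 0 in BDL_Vehicle over Sham_Vehicle were -0.12 to 0.36 for Akr1c12, -0.10 to 0.056 for Akr1a1 on 1430124_x_at, -0.38 to 0.17 for Akr1e1, -0.16 to 0.28 for Akr7a5 and -0.083 to 1.78 for Slc2a2. In BDL_GW4064 over Sham_Vehicle they were -0.32 to 0.16 for Akr1c12, -0.028 to 0.091 for Akr1a1 on 1430124_x_at, -0.14 to 0.062 for Akr1e1, -0.36 to 0.039 for Rdh9, -0.98 to 0.89 for Slc2a2 and -0.55 to 0.36 for Tkfc. The cause was not tested.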
